A study of Bombyx mori with 2 samples.

Results

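The genes described here are 8 of the 12376 genes in the deposited expression table of the silkworm, *Bombyx mori*. Their names from sequence similarity (BLAST) are of 30K proteins, storage proteins and a vitellogenin. They were chosen by these names and by their measured FPKM in the same libraries that are compared below, so each difference is given as a description and has no test. The words used for the names matched 42 genes in all, of which 35 had a 30K name, 5 a storage protein name and 2 a vitellogenin name. The 8 genes are *BGIBMGA004464*, *BGIBMGA004387* and *BGIBMGA004476* among the 30K lipoproteins, *BGIBMGA012788* with a protease name, *BGIBMGA011266*, *BGIBMGA009028* and *BGIBMGA008860* among the storage proteins, and *BGIBMGA005196* with the name vitellogenin-2-like.

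The study compared the wildtype strain C603 with the *nm2* mutant, a non-molting mutant found in C603 in which part of the coding sequence of *BmCPG10*, a gene for a cuticular protein, is deleted. According to the labels, *nm2* larvae look normal in the first instar, fail to molt in the second and then die. Heads were collected from 2nd instar larvae of both strains in the pre-molting stage, with no treatment, and 6 larvae were pooled for each strain. Each pool gave 1 library, so there is no spread between replicates, and every difference is one between these 2 libraries. The labels state neither the sex of the pooled larvae nor the time each mutant larva had already spent without molting.

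In silkworms, as in other moths, 30K lipoproteins and storage proteins are made mainly by the fat body and released into the haemolymph. The 30K proteins are small lipid-binding plasma proteins that build up towards the end of larval life and are a reserve for the pupa and the egg. Storage proteins are hexamers of the haemocyanin superfamily, which the fat body takes up again before pupation as a store of amino acids. Storage protein 1 is rich in methionine and is known for its accumulation in females of the last instar, while arylphorins are rich in aromatic amino acids. Vitellogenin is the precursor of the main yolk protein of adult females. In a bulk library of heads, fewer fat body cells and less RNA per fat body cell cannot be told apart.

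Of the 12912619 wildtype and 12900347 *nm2* clean reads, 55.5% and 60.1% were mapped to genes. Values are FPKM, read numbers scaled by gene length and library size, which can be compared between genes. The size rule called a gene higher or lower in *nm2* where either library reached 5 FPKM and log2((*nm2* + 1)/(wildtype + 1)) was at least 1 or at most -1. By this rule 809 of 9158 genes (8.83%) were higher and 1371 (15.0%) were lower. Over the 7607 genes that reached 5 FPKM in both libraries, the median log2 ratio was -0.28, and with this median set to 0 the counts became 1151 higher and 929 lower. Where the coding length of a gene was listed, reads were recovered from the FPKM to give a 95% interval of the ratio, which covers counting error only and compares these libraries, not the strains. Lengths came only from the tables of genes that the authors had called different between the same libraries, so an interval shows how precise a ratio is, and that it leaves out 1 is no finding. The gene model for *BmCPG10*, *BGIBMGA002602*, had 117 FPKM in the wildtype against 278 FPKM in *nm2*. This is a value over the whole gene, and it does not check the deletion.

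All 8 genes reached 5 FPKM in a library, and 6 of them did so in both. By the size rule 4 genes were higher in *nm2*, 2 were lower and 2 were neither. Beside these counts, 8.83% of all genes were higher and 15.0% were lower, and nothing is read from this since the same values had a part in the choice. The 4 higher genes were 3 abundant 30K lipoproteins and the storage protein gene *BGIBMGA009028*. Both lower genes, *BGIBMGA008860* and *BGIBMGA005196*, had under 10 FPKM in the wildtype. They passed the limit through the wildtype library alone. The plot of FPKM by gene shows this gap, since 6 genes had at least 546 FPKM in both libraries and the other 2 never reached 10 FPKM.

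**Figure D1:**
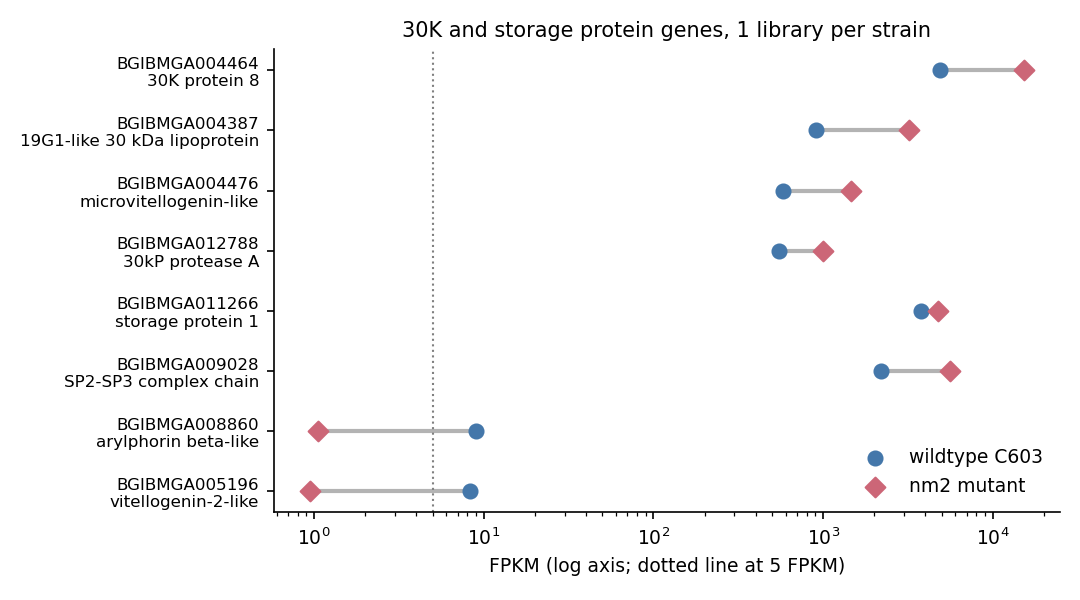
FPKM of the 8 genes on a log axis, with a circle for the wildtype library, a diamond for the *nm2* library, and a dotted line at 5 FPKM. The 3 30K lipoprotein genes and *BGIBMGA009028* were higher in *nm2*, *BGIBMGA011266* moved from 3797 to 4753 FPKM, and the 2 genes at the bottom fell under the line in *nm2*.

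The most abundant of these genes was *BGIBMGA004464*, named 30K protein 8. It had 4855 FPKM in the wildtype against 15274 FPKM in *nm2*, or 3.15 times the wildtype value (counting interval 3.09 to 3.21), and a log2 difference of 1.65. Among all genes it ranked 28th in the wildtype and 11th in *nm2*. It was therefore among the most abundant transcripts of both head libraries. Of the genes that reached 5 FPKM, 399 had a larger log2 difference.

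*BGIBMGA004387* is named as a low molecular mass 30 kDa lipoprotein of the 19G1 type. It had 906 FPKM in the wildtype against 3213 FPKM in *nm2*, which is 3.55 times the wildtype value (3.41 to 3.69), with a log2 difference of 1.83. *BGIBMGA004476* is named microvitellogenin-like, after a small yolk protein of moths that belongs to the 30K family and is unrelated to vitellogenin. Its FPKM was 577 in the wildtype and 1459 in *nm2*, a ratio of 2.53 (2.40 to 2.67) and a log2 difference of 1.34. The counting intervals of these 3 genes do not overlap, so in these libraries *BGIBMGA004387* had the largest ratio and *BGIBMGA004476* the smallest. Its rank moved from 310th to 162nd, and that of *BGIBMGA004387* from 236th to 57th.

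*BGIBMGA012788* carries 30K in its name but is listed as 30kP protease A (43k peptide) precursor, a protease named for the proteins it cuts and not a 30K lipoprotein. It had 546 FPKM in the wildtype against 996 FPKM in *nm2*, with a log2 difference of 0.87. This is under the size rule, and with the median log2 ratio of all genes set to 0 the value became 1.15 and passed it. No coding length was at hand for this gene, so it has no counting interval. It is left out of the counts of 30K lipoproteins that follow.

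Without these 3 lipoproteins and the protease, 31 genes had a 30K name, and 17 of them reached 5 FPKM in a library. Of the 17, 11 were higher in *nm2*, 1 was lower and 5 were neither, beside 8.83% higher and 15.0% lower among all genes. Their median log2 difference was 1.93, beside -0.30 for all genes at this limit. Of the 17, 5 passed the limit in *nm2* alone and so leaned towards higher values. Among the 12 that reached it in both libraries, 7 were higher, 1 was lower and 4 were neither, beside 6.47% higher and 9.86% lower among all genes with that level in both. These counts come from the same libraries that had a part in the choice of the 3 genes, and they describe the family with no test. With the 3 genes included, 14 of 20 were higher.

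The microvitellogenin-like gene *BGIBMGA004474* had 381 FPKM in the wildtype against 2082 FPKM in *nm2*, a ratio of 5.47 (5.14 to 5.82). *BGIBMGA004465*, named 30K protein 9, had 197 and 895 FPKM, a ratio of 4.55 (4.16 to 4.99). Both intervals lie above those of the 3 genes described first. The microvitellogenin-like *BGIBMGA004463* stood at 177 FPKM in the wildtype and 558 FPKM in *nm2*, a ratio of 3.15 (2.85 to 3.49), which overlaps the interval of *BGIBMGA004464*.

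At lower levels the ratios were spread more widely and their intervals were wider. *BGIBMGA014098*, a 21G1-like lipoprotein, had 54.7 FPKM in the wildtype against 281 FPKM in *nm2*. *BGIBMGA004385*, also 21G1-like, had 40.0 and 145 FPKM, and the microvitellogenin-like *BGIBMGA014097* had 14.2 and 64.8 FPKM. The largest ratio with a lower bound well away from 1 was that of *BGIBMGA004398*, a PBMHPC-19-like lipoprotein, which had 5.69 FPKM in the wildtype against 51.4 FPKM in *nm2* (9.04 times, 5.30 to 16.6). These genes lie in the middle of the plot of ratios, to the right of the line at 2.

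The remaining higher genes were near the limit of detection in the wildtype. *BGIBMGA004471*, microvitellogenin-like, had 4.19 and 21.5 FPKM. *BGIBMGA004386*, also microvitellogenin-like, had 0.76 and 6.13 FPKM, which is 3 recovered reads in the wildtype and 29 in *nm2*. *BGIBMGA004405*, a PBMHP-12-like lipoprotein, was listed at 0 in the wildtype and 5.40 FPKM in *nm2*, which is 4.95 times a floor of 3 counts in the wildtype library. That value leaves out the counting error of its 16 recovered reads in *nm2*. *BGIBMGA004475*, a 21G1-like lipoprotein, had 0.61 and 5.15 FPKM, with no listed length. These low values rest on few reads, and the ratios of the abundant genes are the more precise ones. *BGIBMGA004405* and *BGIBMGA004475* dropped below the limit of 5 FPKM when both libraries were rescaled to the same sum, which left 9 of 15 genes higher.

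One gene went the other way. *BGIBMGA004454*, a 21G1-like lipoprotein precursor, had 132 FPKM in the wildtype against 58.9 FPKM in *nm2*, a ratio of 0.446 (0.368 to 0.540) and a log2 difference of -1.15. With the median log2 ratio of all genes set to 0 this became -0.87, which is inside the size rule. The 5 genes that passed it in neither direction were all named microvitellogenin-like. *BGIBMGA004451* was the most abundant of them, with 429 FPKM in the wildtype and 579 FPKM in *nm2*. *BGIBMGA014171* had 18.7 and 32.2 FPKM, *BGIBMGA004467* had 11.9 and 21.0 FPKM, and *BGIBMGA004473* had 3.9 and 7.81 FPKM. *BGIBMGA013684* had 41.8 and 38.9 FPKM, a log2 difference of -0.10 that became 0.18 with the median set to 0, so its direction depends on the scaling.

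**Figure D2:**
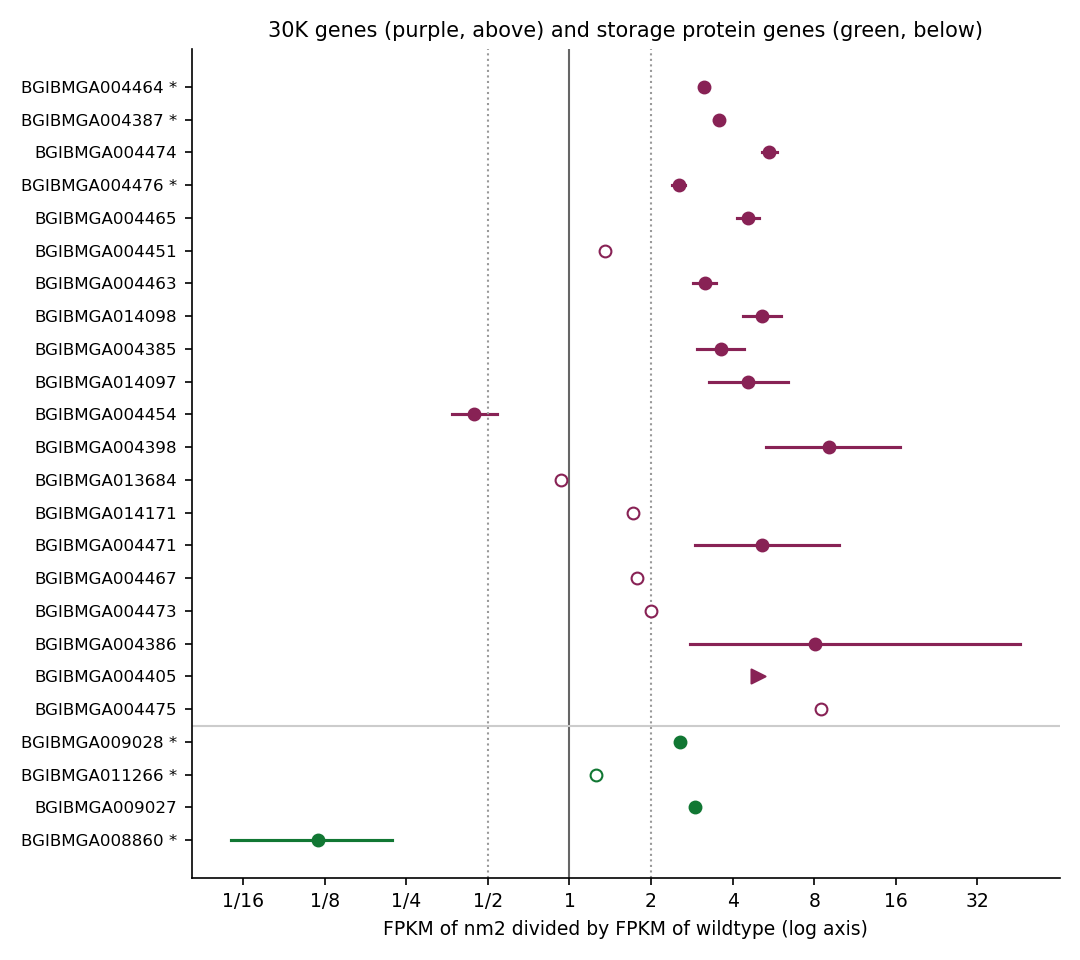
Ratio of *nm2* to wildtype FPKM on a log axis for the 20 30K lipoprotein genes (purple) and 4 storage protein genes (green) that reached 5 FPKM, each ordered by FPKM in *nm2*, with an asterisk at genes of the 8. Bars are 95% counting intervals, open circles have none, the triangle is a lower bound, and dotted lines mark ratios of 0.5 and 2; most purple points lie right of 2 and *BGIBMGA004454* lies at 0.446.

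The other 14 genes with a 30K name stayed at or under 3.04 FPKM in both libraries. Of these, 6 were listed at 0 in the wildtype and 3 in *nm2*. The 30K genes are a family of similar copies, and the abundance estimate divides reads that match several of them. *BGIBMGA004464* and *BGIBMGA004466* were both named 30K protein 8, and the second had 1.67 FPKM in the wildtype and was listed at 0 in *nm2*. Reads with several positions made up 4.67% of the wildtype and 6.83% of the *nm2* clean reads. How reads were divided between near-identical copies was not tested, so the value of a single copy is less certain than the sum over the family.

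Summed over the 34 genes, the 30K lipoproteins had 7857 FPKM in the wildtype against 24807 FPKM in *nm2*, a ratio of 3.16. This was 0.682% of all FPKM in the wildtype and 2.10% in *nm2*. *BGIBMGA004464* alone made up 61.8% of the 30K sum in the wildtype and 61.6% in *nm2*, so the make-up of the family by its main gene was nearly the same in both libraries. Without that gene the sum went from 3001 to 9534 FPKM, a ratio of 3.18. The 3 genes described first, chosen in part by these same values, together made up 80.7% of the 30K sum in the wildtype and 80.4% in *nm2*. The ratio of the family sum was thus nearly the same with and without its most abundant gene.

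The 30K genes that were matched to a reference gene mostly lay together. By the accession of the best BLAST hit, 11 of the 34 genes could be matched to 10 RefSeq genes of the assembly ASM3026992v2, none of them among the 3 abundant genes described first. The hit of a gene model can be a close copy of it, so the order is approximate. Of these, 7 lay on 1 chromosome within a run of 32 protein-coding genes. The 2 at one end of the run, *BGIBMGA004454* and *BGIBMGA004404*, matched neighbouring RefSeq genes, and both had less FPKM in *nm2* (132 and 58.9 FPKM for the first, 2.21 FPKM and listed at 0 for the second). The other 5 had more FPKM in *nm2*, among them *BGIBMGA004398*, *BGIBMGA004473* and *BGIBMGA014097*, while *BGIBMGA004400* and *BGIBMGA004394* stayed at or under 1 FPKM. The coding lengths listed for 14 of the 30K genes ran from 717 to 1203 bases.

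The storage protein genes did not move together. *BGIBMGA009028*, named as a chain of the complex of storage proteins SP2 and SP3 from silkworm haemolymph, had 2193 FPKM in the wildtype against 5625 FPKM in *nm2*. The ratio was 2.56 (2.52 to 2.61) and the log2 difference was 1.36. Its rank among all genes went from 108th to 27th. A second gene with a name from the same complex, *BGIBMGA009027*, was not matched by the words of the storage protein list and was added after its values were seen. It had 1161 FPKM in the wildtype against 3361 FPKM in *nm2*, a ratio of 2.89 (2.83 to 2.96). The FPKM of *BGIBMGA009027* divided by that of *BGIBMGA009028* was 0.529 in the wildtype and 0.598 in *nm2*. Both genes of the complex were thus higher in *nm2*, by similar but not equal ratios.

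*BGIBMGA011266*, the methionine-rich sex-specific storage protein 1, was the most abundant storage protein gene of the wildtype, at 3797 FPKM, and had 4753 FPKM in *nm2*. Its log2 difference of 0.32 was under the size rule, and it stayed under it at 0.61 with the median log2 ratio of all genes set to 0. The order of the storage proteins therefore differed between the libraries. The FPKM of *BGIBMGA011266* was 1.13 times the sum of *BGIBMGA009027* and *BGIBMGA009028* in the wildtype and 0.529 times that sum in *nm2*. No coding length was at hand for *BGIBMGA011266*, so the ratio of 1.25 has no counting interval.

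*BGIBMGA008860*, named arylphorin subunit beta-like, stood apart from the abundant storage proteins in level and direction. It had 9.0 FPKM in the wildtype against 1.06 FPKM in *nm2*, or about 87 and 11 recovered reads. This is 8.49-fold lower in *nm2* (4.53 to 17.7), with a log2 difference of -2.28. It reached the limit of 5 FPKM in the wildtype alone. In the deposited pathway annotation *BGIBMGA008860*, *BGIBMGA009028* and *BGIBMGA009027* were all listed under tyrosine metabolism, riboflavin metabolism and melanogenesis, together with a phenoloxidase gene of the same superfamily. Hexameric storage proteins share descent with phenoloxidases but are not known as enzymes of those pathways. The other storage protein names were near the limit of detection. *BGIBMGA008862*, hexamerin-1.1-like, had 2.60 and 3.07 FPKM, and *BGIBMGA008859*, named as a basic juvenile hormone-suppressible protein, had 0.85 and 0.34 FPKM. The 5 genes of the storage protein list summed to 6003 FPKM in the wildtype and 10382 FPKM in *nm2*, a ratio of 1.73. With *BGIBMGA009027* added the sums were 7164 and 13744 FPKM, a ratio of 1.92.

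*BGIBMGA005196*, named vitellogenin-2-like, had 8.34 FPKM in the wildtype against 0.94 FPKM in *nm2*. This is about 33 and 4 recovered reads, and the value was 8.87-fold lower in *nm2* (3.16 to 34.5), with a log2 difference of -2.27. The name needs care. In *Drosophila* the proteins named vitellogenins are yolk proteins of the lipase family and are unrelated to the large vitellogenin of moths. The coding length of *BGIBMGA005196* was 1086 bases, and the deposited annotation listed it under fat digestion and absorption, glycerolipid metabolism, pancreatic secretion, and vitamin digestion and absorption. The gene named vitellogenin precursor, *BGIBMGA004585*, had 0.05 FPKM in the wildtype and was listed at 0 in *nm2*. The label of the gene set as fat body proteins therefore does not rest on vitellogenin in these libraries.

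The lipophorin receptor, which takes up lipid-carrying lipophorin, was listed as 2 gene models. *BGIBMGA002662* had 40.1 FPKM in the wildtype against 46.1 FPKM in *nm2*, and *BGIBMGA002661* had 11.1 and 28.4 FPKM, a ratio of 2.55 (2.01 to 3.26). The 3 genes named vitellogenin receptor stayed at or under 0.56 FPKM in both libraries. Of the 12 lipid transport genes at the limit, 3 were higher, 0 were lower and 9 were neither, with a median log2 difference of 0.30, beside 8.83% higher, 15.0% lower and a median of -0.30 among all genes. Besides *BGIBMGA002661*, the higher ones were *BGIBMGA013893*, an apolipoprotein of the lipid transfer particle (4.41 and 11.2 FPKM), and *BGIBMGA012943*, a fatty acid-binding protein (39.4 and 87.9 FPKM). *BGIBMGA013893* passed the limit in *nm2* alone and so leaned towards a higher value. *BGIBMGA012942*, another fatty acid-binding protein, had 60.4 and 30.6 FPKM. The most abundant was apolipophorin III, *BGIBMGA013108*, with 1180 FPKM in the wildtype and 1051 FPKM in *nm2*.

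The haemolymph list held mostly further plasma proteins. Of its 16 genes at the limit, one of which is *BGIBMGA009028*, 7 were higher, 0 were lower and 9 were neither, beside 8.83% higher and 15.0% lower among all genes. Without *BGIBMGA009028*, which is one of the 8 chosen genes, 6 of 15 were higher. Genes that passed the limit in *nm2* alone, among them *BGIBMGA003841*, leaned towards higher values. The 9 include *BGIBMGA000518* (11.4 and 8.32 FPKM), a pyruvate dehydrogenase phosphatase, which is not a plasma protein by name. It was matched only because the word transferring in its name contains transferrin. The chymotrypsin inhibitor CI-8A, *BGIBMGA001983*, had 157 FPKM in the wildtype against 922 FPKM in *nm2*, a ratio of 5.87 (5.40 to 6.38). Transferrin, *BGIBMGA011424*, which carries iron, had 110 and 484 FPKM. The related genes *BGIBMGA012221*, melanotransferrin-like, and *BGIBMGA003841*, transferrin-like, had 79.2 and 351 FPKM and 4.89 and 29.0 FPKM. Both abundant ferritin genes, which store iron, were nearly level, with 1087 and 1065 FPKM for *BGIBMGA008780* and 954 and 967 FPKM for *BGIBMGA008768*. The promoting protein *BGIBMGA008221* had 1476 FPKM in the wildtype against 1198 FPKM in *nm2*. The juvenile hormone binding protein of haemolymph, *BGIBMGA011549*, had 379 and 520 FPKM, which is under the size rule. Some of the abundant plasma protein genes were thus called higher, and others, among them the ferritins and these 2 genes, were not.

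The labelled tissue was head, so genes known from the fat body were set beside the 30K genes. Of the 11 fat body marker genes at the limit, 1 was higher, 1 was lower and 9 were neither, which is near the 8.83% higher and 15.0% lower among all genes. The list summed to 2594 FPKM in the wildtype and 2315 FPKM in *nm2*. Perilipin, *BGIBMGA013593*, which coats lipid droplets, had 42.7 FPKM in the wildtype against 155 FPKM in *nm2*, a ratio of 3.64 (3.12 to 4.27). Uricase, *BGIBMGA001333*, which degrades urate, had 198 and 60.7 FPKM, a ratio of 0.306 (0.264 to 0.355). The adipokinetic hormone receptor of the fat body, *BGIBMGA002767*, had 39.5 and 46.5 FPKM. The mitochondrial phosphoenolpyruvate carboxykinase *BGIBMGA004276* had 9.95 and 19.5 FPKM. The apolipophorin precursor was listed as *BGIBMGA013342*, with 609 and 406 FPKM, and *BGIBMGA013341*, with 111 and 148 FPKM. Apolipophorin III, *BGIBMGA013108*, with 1180 and 1051 FPKM, alone made up 45.5% of the list sum in the wildtype and 45.4% in *nm2*. The list sum therefore follows the apolipophorins more than the other markers. Fat body markers were thus present in both libraries. Their sum, so weighted, was 0.893 times the wildtype value in *nm2*, while the sum of the 30K genes was 3.16 times the wildtype value. The fat body list also holds a glycogen synthase kinase and a muscle glycogen phosphorylase that its words matched. Both were among the 9 in neither direction, so leaving them out could not change the counts of higher or lower genes.

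**Figure D3:**
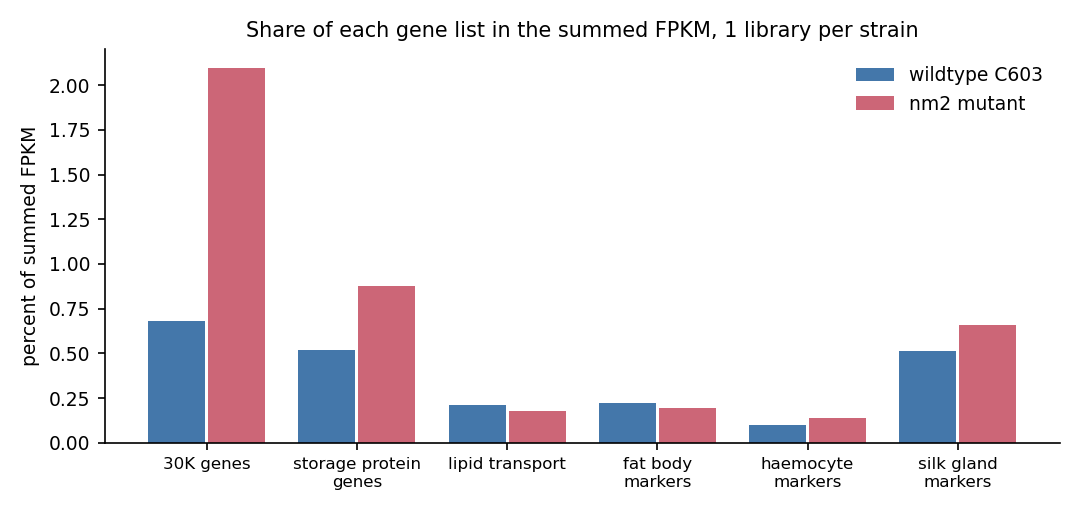
Percent of the summed FPKM taken by each gene list in the wildtype library (blue) and the *nm2* library (red), 1 library each, with the storage bar leaving out *BGIBMGA009027* and the apolipophorins counted in both the lipid transport and the fat body bars. The 30K bar went from 0.682% to 2.10% and the storage bar from 0.521% to 0.877%, while that of the fat body markers went from 0.225% to 0.196%. Not every list is drawn. Among those left out, the cuticular proteins of the epidermis went from 3.67% to 10.2%, the midgut list from 1.89% to 3.55%, and the muscle list from 2.55% to 1.75%.

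Markers of some other tissues also differed between the libraries. The summed level of the muscle list was 29423 FPKM in the wildtype and 20699 FPKM in *nm2*, that of the midgut list was 21789 and 42030 FPKM, and that of the cuticular proteins of the epidermis was 42260 and 120580 FPKM. In the last of these, 40 of 82 genes at the limit were higher and 26 were lower, beside 8.83% higher and 15.0% lower among all genes. Without the putative cuticle protein *BGIBMGA005277* (185 and 32990 FPKM) the sums of this list were 42075 and 87594 FPKM. The silk gland list summed to 5916 and 7787 FPKM, while the neuron and eye list was nearly level at 335 and 321 FPKM. The midgut list was matched by the word trypsin, so it also holds the chymotrypsin inhibitor *BGIBMGA001983* of the haemolymph list (157 and 922 FPKM). Hemocytin, a defining gene of haemocytes, was listed as *BGIBMGA006692* with 7.65 and 9.14 FPKM and *BGIBMGA006694* with 14.2 and 14.8 FPKM. Of the 38 genes of the wider haemocyte list at the limit, 8 were higher and 7 were lower, beside the same 8.83% and 15.0% of all genes. The sum of this list went from 1159 to 1635 FPKM. Without the prophenoloxidase activating enzyme *BGIBMGA013746* (55.1 and 706 FPKM) its sum went the other way, from 1104 to 929 FPKM. The part of tissue content in the values of the 30K and storage protein genes was not tested.

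The housekeeping genes of the study were closer to level. Actin A3, *BGIBMGA005576*, had 2517 FPKM in the wildtype against 2952 FPKM in *nm2*, with 1712 and 1454 FPKM for *BGIBMGA007490*, which encodes glyceraldehyde-3-phosphate dehydrogenase, and 2389 and 2143 FPKM for the ribosomal protein L3 gene *BGIBMGA013567*. Their log2 differences lay between -0.24 and 0.23. The 3 genes with a BLAST name nearest to *BGIBMGA004464* in level in both libraries, by distance on the log2(FPKM + 1) scale over these 2 values, were all digestive enzymes by name. They were the trypsin-like protease *BGIBMGA010024* (5950 and 13205 FPKM, distance 0.36), the trypsin *BGIBMGA003567* (6242 and 9634 FPKM, distance 0.76) and the triacylglycerol lipase *BGIBMGA010400* (6789 and 8564 FPKM, distance 0.97). With 2 values a gene, this likeness describes FPKM level only. The ratios of the 3 genes were 2.22, 1.54 and 1.26, all under the 3.15 of *BGIBMGA004464*.

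**Figure D4:**
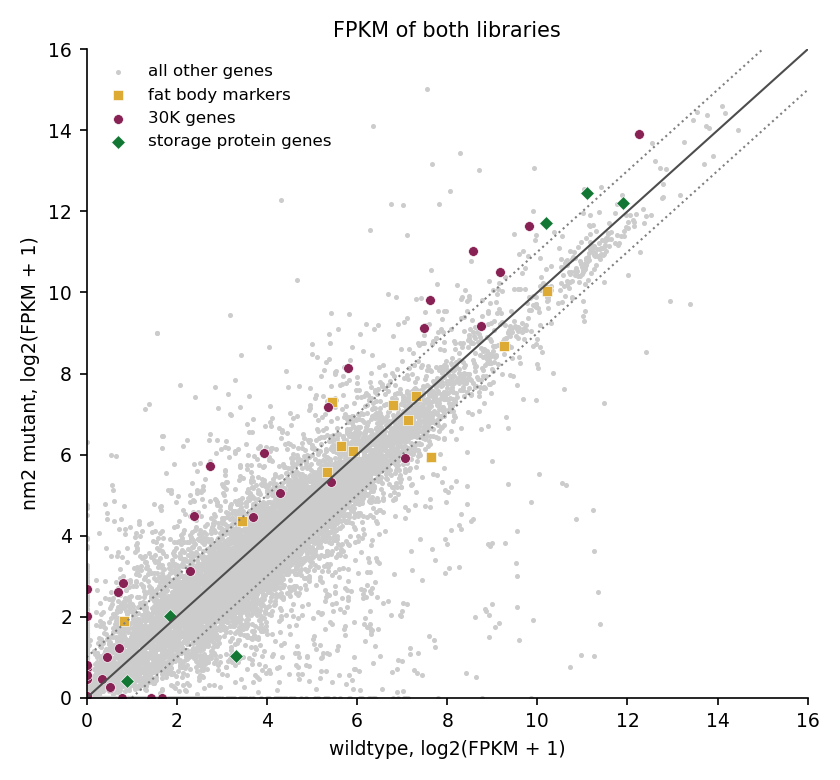
log2(FPKM + 1) of every gene in the wildtype library (horizontal axis) and the *nm2* library (vertical axis), with fat body markers as squares, 30K lipoprotein genes as circles and storage protein genes as diamonds, the line of equality, and dotted lines at a log2 difference of 1 and -1. Of the 20 30K lipoprotein genes that reached 5 FPKM, 14 lie above the upper dotted line, beside 8.83% of all genes. Without the genes chosen in part by these same values, 11 of 17 lie above it. Of the 20, 5 reached 5 FPKM in *nm2* alone and so leaned towards higher values. Of the 11 fat body markers that reached 5 FPKM, 9 lie between the dotted lines, as do 6978 of all 9158 genes at this limit.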

How the data were processed

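Heads of 1 pool of 6 larvae per strain were sequenced as 1 library each. The authors filtered the reads, aligned them to the silkworm gene set of SilkDB, estimated abundance with RSEM and deposited FPKM for 12376 genes. The counts of clean reads and the percent mapped to genes are deposited values of the authors. The authors also computed log2 ratios, p-values and FDR between the libraries and pathway p-values and q-values, and none of these deposited columns was used. Gene lengths and pathway gene lists of the same tables were read as annotation.

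Differences are log2((*nm2* + 1)/(wildtype + 1)), where the pseudocount of 1 FPKM understates the change of low genes. The size rule asked for at least 5 FPKM in either library and a log2 difference of at least 1 in either direction. With 1 library per strain no test was made. The design has no replicate, so no SD could be given. Where a coding length was listed (1727 genes), reads were recovered as FPKM times the length less 36 bases times a library total, where 89.9% of 297 low wildtype values and 95.1% of 430 low *nm2* values came within 0.1 of a whole number. The totals, 3770000 and 4060000, gave the largest such share within the range that was searched. They were 52.6% and 52.3% of the reads mapped to genes. Totals below that range were not tried. Larger totals also give whole reads and would narrow the exact conditional binomial (Clopper-Pearson) intervals. PCR copies are not independent molecules, so intervals and floors cover counting error only.

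The genes, gene lists and alternatives were chosen with earlier results of these data known. The text names the 8 genes, every 30K, storage protein or vitellogenin gene that reached 5 FPKM, the 4 largest differences and the most abundant gene of the lipid transport, fat body and haemolymph lists, the 3 genes nearest to the most abundant one, and the housekeeping genes. Genes under 5 FPKM, receptors, both ferritins, hemocytin, *BGIBMGA002767*, *BGIBMGA013341*, *BGIBMGA002602*, *BGIBMGA005277*, *BGIBMGA013746* and *BGIBMGA009027* were added after their values were seen. So were *BGIBMGA000518*, *BGIBMGA008221* and *BGIBMGA011549*. Lists were built from words in the BLAST names. The alternatives were other scalings, pseudocounts and limits on low FPKM. The calculations were tested on simulated data. The calculations ran in Python 3.11.15 with SciPy 1.17.1, pandas 2.3.3 and NumPy 2.4.6, and plots were drawn with matplotlib 3.10.9. Sequences were not analysed here.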

Additional observations from a re-analysis of the deposited data

How the results depend on the processing

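The 4 higher and 2 lower genes of the 8 kept their direction under each scaling, pseudocount and limit tried that left them above the limit. So did *BGIBMGA011266* and *BGIBMGA012788*. This was fixed in advance and is no finding. A pseudocount or limit cannot reverse a direction, and the scalings moved log2 differences by -0.039 to 0.282, less than the difference of any of the 8 genes. With the median log2 ratio of all genes set to 0, *BGIBMGA012788* passed the rule and the count of higher genes became 5, and of the 34 genes with a 30K name but no protease name 17 were higher and 0 lower, in place of 14 and 1. That count was 12 with both libraries rescaled to sum to 1000000, as *BGIBMGA004405* and *BGIBMGA004475* dropped under 5 FPKM, and 11 with a limit of 20 FPKM, which *BGIBMGA004386* also missed. It was 14 or 15 under the other settings. With a limit of 20 FPKM, 0 of the 8 genes and 0 genes of the storage protein list were lower, since both lower genes are under that level, and 502 genes of all were higher and 816 lower. With no limit or a limit of 1 FPKM, 3 genes of the 30K list were lower. With *BGIBMGA009027* added, 2 storage protein genes were higher. With no limit the median log2 difference of the 30K list was 0.81 in place of 1.83, since genes near 0 FPKM then count. Setting the median to 0 raised the share of higher genes among all calls from 37.1% to 55.3%. No paired analysis was possible because each strain has 1 library, and for the same reason no library could be left out. Of the 6 of the 8 genes with recovered reads, depth limits the 2 lower ones most, with 4 and 11 reads in *nm2*, and in the 30K list *BGIBMGA004386* and *BGIBMGA004405* had 3 and 0 reads in the wildtype. Differences between pools, larvae or the moment of sampling cannot be told apart from the strain.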
